A study of Mus musculus with 4 samples.

Results

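RNA counts were compared for 10 genes of stored fat breakdown, the lipolysis enzymes and lipid droplet proteins Pnpla2, Lipe, Mgll, Abhd5, G0s2, Plin1, Plin4, Cidec, Lipf and Ces1d, in RNA-seq libraries of mouse inguinal white adipose tissue (iWAT). The genes were selected by exact gene symbol, and all 10 were found among the 26214 symbols of the deposited count tables. The libraries came from the stromal vascular fraction (SVF), the cells that remain when digested fat is spun and floating adipocytes are taken off. Mice given a medicinal herb extract (MHE) supplied 2 libraries and mice given phosphate-buffered saline (PBS) supplied 2, all called biological replicates in the labels. The labels do not state the composition, dose or duration of the extract, nor the strain, diet, age or sex of the animals. The names of the deposited tables carry different letter codes for MHE and PBS, which could refer to a diet or to animals and which no label explains, so a difference besides the treatment cannot be told apart from it. Since no label describes separate litters or cages, p-values measure the spread between these libraries only.

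A fat cell keeps triglyceride in a droplet whose coat proteins decide how far the lipases can reach it. Adipose triglyceride lipase (Pnpla2) takes the first fatty acid, with Abhd5 as its activator and G0s2 as its inhibitor; hormone-sensitive lipase (Lipe) takes the next, and monoglyceride lipase (Mgll) releases glycerol. Perilipin 1 (Plin1) holds Abhd5 on the droplet until protein kinase A phosphorylates it, Plin4 coats small nascent droplets, and Cidec lets droplets fuse into one large one. Adrenergic receptors that raise cyclic AMP start the process, and insulin restrains it.

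The libraries held 27161882 to 33391075 counts. Counts of the mature adipocyte hormone gene Adipoq were plentiful, at 2075 and 1462 CPM, the usual depth-scaled count, in MHE libraries and 3172 and 4230 CPM in PBS libraries, although the fraction is prepared to lack adipocytes. The 12 adipocyte markers summed to 21882 and 16631 CPM in MHE libraries and 29420 and 42048 CPM in PBS libraries, and the 8 progenitor markers to 2124 and 2231 CPM against 1849 and 3479 CPM. T cell markers (10 genes) summed to 982 and 710 CPM in MHE libraries and 41.1 and 12.6 CPM in PBS libraries, and B cell markers (8 genes) to 1860.4 and 1471 CPM against 98.3 and 5.98 CPM. CPM are shares of a library, so a lower adipocyte sum need not mean a loss of adipocytes or of their RNA. Fewer adipocytes, less RNA per adipocyte and more RNA from other cells cannot be told apart in such bulk samples. The part of these marker differences in the results that follow was not tested.

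All 10 genes had a negative log2 fold change, MHE minus PBS, and 1 of them, the lipase gene Lipf, fell in edgeR's quasi-likelihood test at an adjusted p under 0.05, where 0.963% of the 16196 tested genes were called lower. Their median log2 fold change was -0.78, against -0.02 over all tested genes, of which 51.2% were negative. In 7 of the 10 both MHE libraries lay below both PBS libraries, an arrangement found in 28.9% of tested genes. The 10 genes were chosen with earlier results of these data known. Their counts and median beside those of all genes are therefore a description and no test. Every one of the 10 was highest in PBS replicate 2, and the excess over PBS replicate 1 ranged from 1.11-fold (Abhd5) to 2.33-fold (Plin4) with a median of 1.68-fold, while the median over all tested genes was 0.989-fold. The median fold change of the 10 therefore moved to -0.28 without PBS replicate 2 and to -1.12 without PBS replicate 1, where 2 of the 10 were called lower (5.99% of all genes tested in that setting). Pnpla2, Lipe, Plin1 and Cidec had log2 fold changes of -0.24, -0.25, -0.22 and -0.63 when PBS replicate 2 was left out, and of -1.06, -1.03, -0.86 and -1.26 when PBS replicate 1 was.

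Muscle and epithelial markers also set the libraries apart. The 5 smooth muscle markers summed to 235 and 433 CPM in MHE libraries and 2435 and 2531 CPM in PBS libraries, and all 5 were lower in MHE at an unadjusted p under 0.05 (11.8% of all tested genes), with a median log2 fold change of -2.94. Of the 5, Lmod1 was called lower by edgeR (-2.30, adjusted p = 0.0355), as were 0.963% of all tested genes. The PBS libraries differed between these markers. Acta2 was highest in PBS replicate 2 (126 and 295 CPM in MHE libraries, 1025 and 2214 CPM in PBS libraries), as was Lmod1 (51.7 and 60.4 CPM in PBS libraries). Myh11 and Tagln were highest in PBS replicate 1 (521 and 499 CPM, against 66.6 and 189 CPM in PBS replicate 2). Cnn1 was high in PBS replicate 1 only (1.32 and 2.42 CPM in MHE libraries, 338 and 2.40 CPM in PBS libraries). The 6 epithelial markers likewise summed to 5.18 and 6.35 CPM in MHE libraries and 134 and 2.06 CPM in PBS libraries. The 6 skeletal muscle markers did not move together, and their sum of 60.0 and 162 CPM in MHE libraries and 284 and 1176 CPM in PBS libraries was nearly all the actin Acta1. Of the others, Myh4, Tnnt3 and Mylpf stood above both PBS libraries in both MHE libraries, at no more than 2.41 CPM, and Ckm had 0.993 and 1.16 CPM in MHE libraries, 17.2 CPM in PBS replicate 1 and 0 counts in PBS replicate 2. Myh4 was called higher by edgeR (4.58, adjusted p = 0.0486), as were 3.97% of all tested genes. The part of these marker differences in the values of the 10 genes was not tested.

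**Figure D1:**
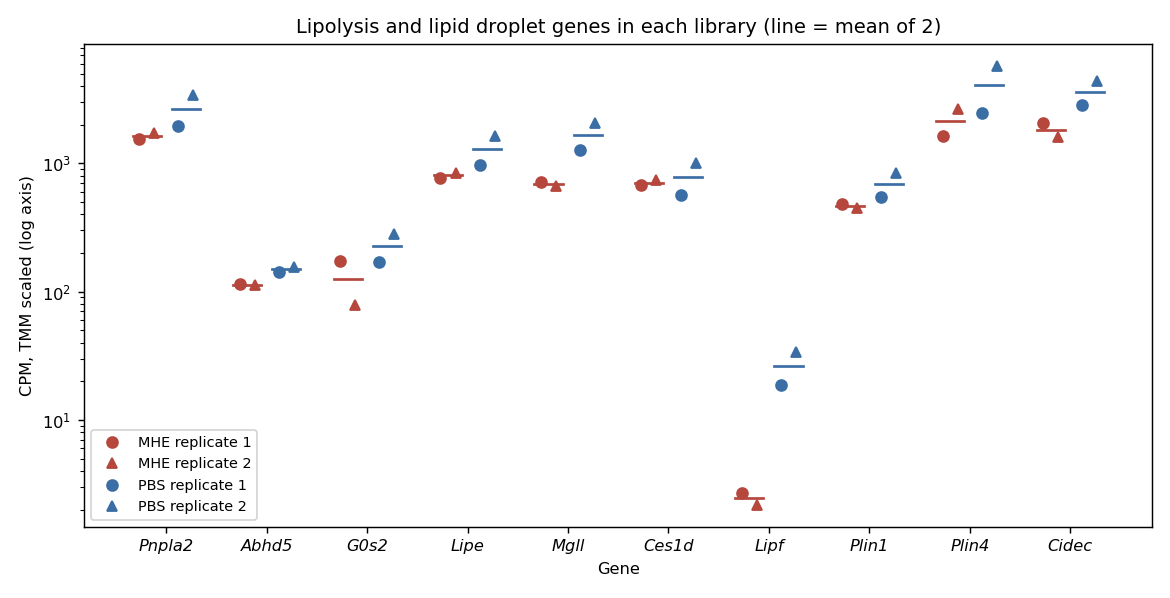
CPM of each of the 10 genes (log axis) in the 4 libraries, MHE in red and PBS in blue, with a line at the mean of each pair. PBS replicate 2 is the highest point for every gene, and the wide gap is that of Lipf, at 2.71 and 2.18 CPM in MHE libraries and 18.7 and 33.7 CPM in PBS libraries.

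The first step of lipolysis was represented by Pnpla2 (chromosome 7, 141455188 to 141460743 in mm10), which had 1559.6 and 1725 CPM in MHE libraries and 1956 and 3387 CPM in PBS libraries. Both MHE values lay below both PBS values, but the PBS libraries differed by more from each other than PBS replicate 1 differed from MHE. The log2 fold change was -0.70 ± 0.42 (SE, n = 2 each; adjusted p = 0.328), with a 95% interval of -1.79 to 0.38. Abhd5, the activator (chromosome 9, 122351616 to 122381524), had 115 and 112 CPM in MHE libraries and 142 and 157 CPM in PBS libraries. Its replicates were close and its groups did not overlap, at a log2 fold change of -0.40 ± 0.21 (adjusted p = 0.270; interval -0.93 to 0.13). G0s2, the inhibitor (chromosome 1, 193272160 to 193273188), had 173 and 78.0 CPM in MHE libraries and 170.4 and 284 CPM in PBS libraries. MHE replicate 1 stood level with PBS replicate 1 and MHE replicate 2 was the low library, so the groups overlapped (-0.85 ± 0.48, adjusted p = 0.301). Without MHE replicate 1 the G0s2 value was -1.53, and without MHE replicate 2 it was -0.38.

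Set against their partner in the same library, inhibitor and activator showed no shift shared by both MHE libraries. G0s2 stood at 11.1 and 4.52 counts per 100 Pnpla2 counts in MHE libraries and at 8.71 and 8.37 in PBS libraries, so that the MHE libraries lay on either side of the PBS pair. Abhd5 stood at 7.34 and 6.47 counts per 100 Pnpla2 counts in MHE libraries and at 7.23 and 4.62 in PBS libraries. PBS replicate 2 was the low library there.

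The next enzymes of the cascade differed from each other. Lipe (chromosome 7, 25379527 to 25398486) had 771 and 845 CPM in MHE libraries and 965 and 1633 CPM in PBS libraries. Its groups did not overlap, yet its log2 fold change of -0.68 ± 0.39 (adjusted p = 0.303; interval -1.68 to 0.31) was smaller than the gap within the PBS pair. Lipe followed Pnpla2 closely, with 49.4 and 49.0 counts per 100 Pnpla2 counts in MHE libraries and 49.3 and 48.2 in PBS libraries. Mgll (chromosome 6, 88724412 to 88828360) had 709.7 and 666 CPM in MHE libraries and 1276 and 2075 CPM in PBS libraries, the MHE mean being 41.0% of the PBS mean. Both MHE libraries were well under both PBS libraries, at a log2 fold change of -1.28 ± 0.39 and a 95% interval of -2.27 to -0.30, but over all genes the adjusted p was 0.116. It passed without PBS replicate 1 (-1.61, adjusted p = 0.0360) and with DESeq2 (-1.32, adjusted p = 0.00156). Per 100 Pnpla2 counts, Mgll had 45.5 and 38.6 counts in MHE libraries and 65.3 and 61.3 in PBS libraries, so Mgll was lower relative to the first lipase as well. The ratios of Lipe and Mgll to Pnpla2 were chosen after the values were seen.

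Lipf encodes gastric lipase, a secreted acid lipase known mainly from the stomach. It lies on chromosome 19 (33961248 to 33976813) and had 90 and 62 counts in MHE libraries and 519 and 996 in PBS libraries. On the CPM scale it had 2.71 and 2.18 in MHE libraries and 18.7 and 33.7 in PBS libraries, so the higher MHE library stayed far under the lower PBS library. The MHE mean was 9.32% of the PBS mean, a log2 fold change of -3.42 ± 0.39 (adjusted p = 0.0248; interval -4.41 to -2.43). It lost the call without MHE replicate 1 (-3.57, adjusted p = 0.322) and without MHE replicate 2 (-3.26, adjusted p = 0.275), settings in which no gene passed (2352 and 2596 genes at an unadjusted p under 0.05), and kept it without PBS replicate 1 (-3.80, adjusted p = 6.99e-05) and without PBS replicate 2 (-2.93, adjusted p = 4.25e-04). Of 8 stomach markers, 4 had 0 counts in every library, among them the pepsinogen gene Pgc and the proton pump subunit gene Atp4b (a count of 0 allows up to 0.0903 to 0.108 CPM per library, for counting error only), and the 8 together reached at most 0.722 CPM (PBS replicate 1). The neighbouring acid lipase genes Lipk, with 0 counts, and Lipn and Lipm, at no more than 0.65 CPM, did not pass the count filter. Of the expressed relatives, Lipa, the lysosomal acid lipase, had 115 and 166 CPM in MHE libraries and 463 and 203 CPM in PBS libraries (-1.24 ± 0.47, adjusted p = 0.168). Lipo3 had 14.4 and 13.97 CPM in MHE libraries and 17.7 and 24.6 CPM in PBS libraries (-0.57 ± 0.25, adjusted p = 0.205). Neither passed, and in both the MHE libraries lay below the PBS libraries.

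Ces1d, a carboxylesterase also called triacylglycerol hydrolase (chromosome 8, 93166072 to 93197804), had 674 and 740.0 CPM in MHE libraries and 566 and 1006 CPM in PBS libraries. The MHE values lay between the PBS values, and the log2 fold change of -0.15 ± 0.39 (adjusted p = 0.817; interval -1.14 to 0.84) turned to 0.33 without PBS replicate 2 and to 0.04 with library totals alone. Liver is another site of Ces1d, and its 6 markers summed to 20.1 and 17.6 CPM in MHE libraries and 5.52 and 17.1 CPM in PBS libraries. Of these sums, Alb held 15.1 and 14.3 CPM in MHE libraries and 2.53 and 13.6 CPM in PBS libraries. Whether liver RNA has a part in the Ces1d values was not tested. Ces1d belongs to a cluster of similar genes, and its longest coding transcript shared 76.5% (Ces1f) to 80.5% (Ces1g) of aligned bases with the other 7, with identical runs of up to 66 bases. The authors' counting could thus move some reads between them. As counted, Ces1f had 149 and 104 CPM in MHE libraries against 62.7 and 111 CPM in PBS libraries, and the others reached at most 2.45 CPM. These values come from that same counting, so they cannot show how many reads moved, which was not tested.

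The 3 coat and fusion proteins were among the abundant transcripts. Plin1 (chromosome 7, 79721164 to 79732904) had 480.4 and 452 CPM in MHE libraries and 548 and 836 CPM in PBS libraries. The MHE pair was tight and below both PBS libraries, at a log2 fold change of -0.57 ± 0.34 (adjusted p = 0.320; interval -1.43 to 0.29). Plin4 (chromosome 17, 56100587 to 56109948) had 1620.0 and 2669.5 CPM in MHE libraries and 2472 and 5748 CPM in PBS libraries. Its replicates were far apart in both groups, MHE replicate 2 was above PBS replicate 1, and the log2 fold change of -0.94 ± 0.57 (adjusted p = 0.331) ran from -0.20 without PBS replicate 2 to -1.44 without PBS replicate 1. Cidec (chromosome 6, 113424634 to 113435760) had 2066 and 1606 CPM in MHE libraries and 2857 and 4364 CPM in PBS libraries. Its groups did not overlap, and the log2 fold change was -0.98 ± 0.42 (adjusted p = 0.203; interval -2.05 to 0.10), with an adjusted p of 0.0223 under DESeq2. Plin1 had 23.3 and 28.1 counts per 100 Cidec counts in MHE libraries and 19.2 in each PBS library, a higher ratio in both MHE libraries.

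**Figure D2:**
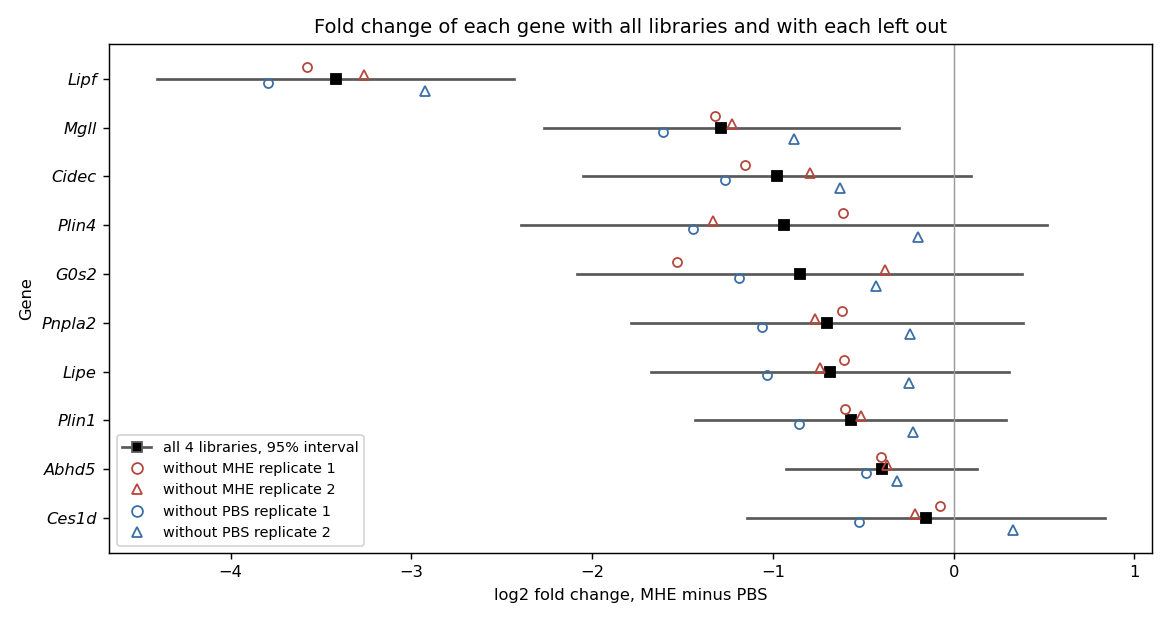
Log2 fold change of each gene, MHE minus PBS, with all 4 libraries (square, bar = 95% interval) and with each library left out (open symbols). The intervals of Lipf (-4.41 to -2.43) and Mgll (-2.27 to -0.30) lie wholly below 0, and leaving out PBS replicate 2 moves every gene toward or past 0.

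Levels of different genes were compared per kilobase of exon (CPM divided by the merged exon length in GENCODE M21), and ranks were taken among 24871 genes with such a length. Cidec was highest, at 1113 and 865 CPM per kilobase in MHE libraries and 1539 and 2351 in PBS libraries, which placed it 38th and 32nd in MHE libraries and 18th and 10th in PBS libraries. Pnpla2 followed, at 516 and 571 CPM per kilobase in MHE libraries and 648 and 1122 in PBS libraries, and then Plin4, at 280.4 and 462 in MHE libraries and 428 and 995 in PBS libraries. Cidec stood apart from Pnpla2 in every library, whereas Pnpla2 and Plin4 overlapped within the PBS group. Ces1d, Mgll, G0s2, Lipe and Plin1 came next, with group means of 298, 135, 144, 137 and 100.3 CPM per kilobase in MHE libraries and 332, 330.1, 261, 221 and 149 in PBS libraries. Within the MHE group G0s2, Lipe and Mgll overlapped one another, Plin1 overlapped G0s2, and Ces1d overlapped Plin4. Within the PBS group Ces1d, Mgll, G0s2 and Lipe overlapped one another, and Plin1 overlapped Lipe. The order of these genes is therefore not resolved. Abhd5 was much scarcer than the lipase it activates, at 19.2 and 18.7 CPM per kilobase in MHE libraries and 23.8 and 26.3 in PBS libraries. Lipf was lowest in MHE libraries (1.92 and 1.54 CPM per kilobase), while in PBS libraries (13.3 and 23.9) it overlapped Abhd5.

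The promoter windows of 3 of these genes are shown because the data set them apart: Lipf had the largest change, and Pnpla2 and Lipe kept a near constant ratio. Each window runs from 250 bases before to 50 bases after a RefSeq start on GRCm38.p6, 5′ to 3′ on the strand of the gene, and capitals mark any of 5 motifs found on either strand. The TATA box was searched as TATAAA or as TATATAA, the GC box as GGGCGG, the nuclear receptor half-site as AGGTCA, the E-box as CACGTG and the cAMP response element as TGACGTCA, all chosen with the sequences in view; matches may overlap, and the last 2 read the same on both strands. Lipf is on the plus strand at chr19:33960998-33961297 and Pnpla2 on the plus strand at chr7:141454938-141455237. For Lipe, the upstream one of the 2 windows at hand is shown, on the minus strand at chr7:25395938-25396237. The Lipe gene itself extends further upstream, to 25398486.
Lipf: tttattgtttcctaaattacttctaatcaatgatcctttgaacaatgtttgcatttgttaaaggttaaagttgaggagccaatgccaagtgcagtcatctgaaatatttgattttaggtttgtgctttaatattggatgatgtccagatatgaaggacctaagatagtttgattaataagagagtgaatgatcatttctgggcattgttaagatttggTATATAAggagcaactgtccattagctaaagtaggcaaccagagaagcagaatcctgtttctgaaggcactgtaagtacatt
Pnpla2: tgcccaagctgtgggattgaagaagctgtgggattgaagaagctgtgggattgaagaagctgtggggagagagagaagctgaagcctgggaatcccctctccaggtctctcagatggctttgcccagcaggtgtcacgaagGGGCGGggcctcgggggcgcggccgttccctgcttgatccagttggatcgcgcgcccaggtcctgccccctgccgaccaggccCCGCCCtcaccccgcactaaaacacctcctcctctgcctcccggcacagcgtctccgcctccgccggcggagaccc
Lipe: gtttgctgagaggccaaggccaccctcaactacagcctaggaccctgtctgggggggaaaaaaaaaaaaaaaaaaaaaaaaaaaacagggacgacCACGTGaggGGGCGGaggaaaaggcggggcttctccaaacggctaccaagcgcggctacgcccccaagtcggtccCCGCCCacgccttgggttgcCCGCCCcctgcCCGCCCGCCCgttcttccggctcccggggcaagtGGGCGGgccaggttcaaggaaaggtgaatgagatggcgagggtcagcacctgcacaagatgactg
The Lipf window held 34.3% G and C and a TATA box that began 32 bases before the start, a motif present in 15.1% of the 32851 windows of all genes. The Pnpla2 and Lipe windows held 65.3% and 61.0% G and C, no TATA box, and 2 and 6 GC boxes, some of which overlap each other in Lipe. The other Lipe window, not shown, held 60.0% G and C and none of the 5 motifs. GC boxes were found in 35.7% of all windows, and the Lipe window shown also held an E-box (7.15% of all windows). Windows were at hand for 9 of the 10 genes (12 in all), and none held the cAMP response element, which 1.79% of all windows contain, while the half-site was found for Abhd5 (16.3% of all windows). These matches describe letters in the windows and say nothing of which factors bind.

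Relative to the summed counts of the 12 adipocyte markers, none of which is among the 10 genes, most of the differences shrank and some turned. That sum was lower in both MHE libraries (21882 and 16631 CPM, against 29420 and 42048 CPM in PBS libraries). Dividing by it therefore raises the MHE values of any gene relative to PBS. Per 1000 adipocyte marker counts, Lipf had 0.124 and 0.131 counts in MHE libraries and 0.637 and 0.801 in PBS libraries, so its groups remained far apart. Mgll had 32.4 and 40.0 in MHE libraries and 43.4 and 49.4 in PBS libraries, and Cidec had 94.4 and 96.6 against 97.1 and 104. Ces1d was higher in both MHE libraries on this scale, at 30.8 and 44.5 against 19.2 and 23.9, as were Abhd5 (5.23 and 6.71 against 4.81 and 3.72) and Plin1 (22.0 and 27.2 against 18.6 and 19.9). The share of all genes higher on this scale was not counted, so the rise cannot be read as a trait of these genes. Pnpla2, Lipe, G0s2 and Plin4 overlapped between the groups. The marker sum includes Lep and Lpl, which had log2 fold changes of -2.72 and -1.55, and Cfd, which had 0.73. Fabp4 was its largest term, at 13113.5 and 6063 CPM in MHE libraries and 11780 and 15569.5 CPM in PBS libraries. The gap in Fabp4 between the MHE replicates thus enters every ratio. With libraries instead scaled to the geometric mean of 6 adipocyte genes (Adipoq, Fabp4, Pparg, Cebpa, Slc2a4 and Trarg1), Lipf had -2.74 and was called (adjusted p = 6.23e-06). Mgll had -0.61 and Ces1d 0.54, and 4 of the 10 turned positive. That scaling moved the median of all tested genes to 0.59, and relative to it the median of the 10 was -0.69, against -0.75 with the usual scaling. A change of scaling shifts all genes by about the same amount, so this difference could hardly move. It says nothing of adipocyte content.

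**Figure D3:**
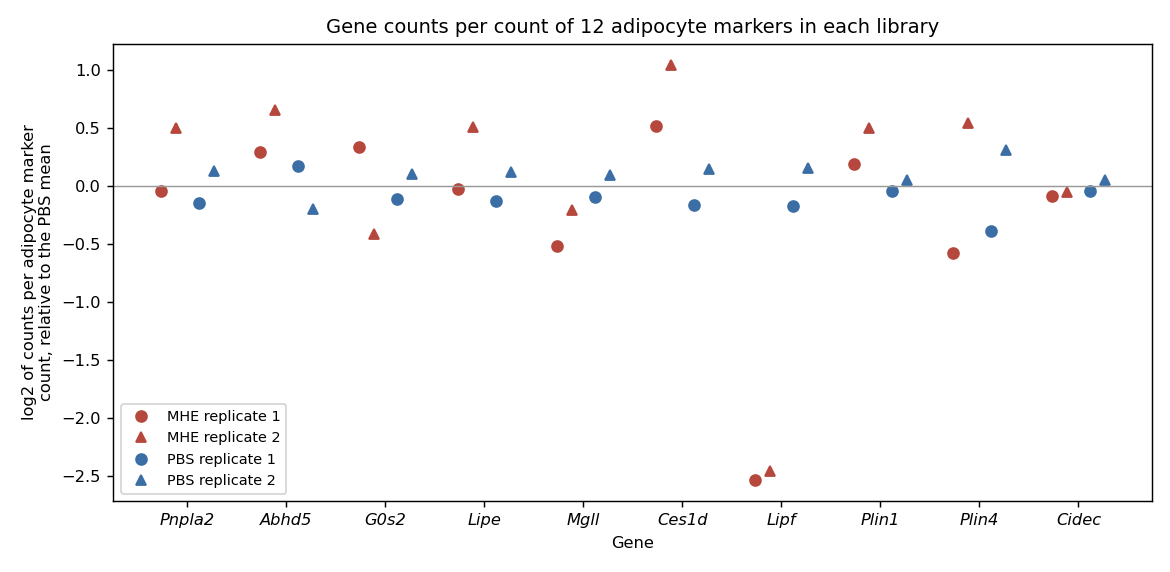
Counts of each gene per count of the 12 adipocyte markers in the 4 libraries, as log2 relative to the mean of the PBS libraries (0 line), MHE in red and PBS in blue. Lipf in MHE libraries (0.124 and 0.131 per 1000, against 0.637 and 0.801 in PBS libraries) stands far below the rest, which lie within about 1 log2 unit of the PBS mean.

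Upstream of the lipases, the receptor gene Adrb3 moved against the direction of the 10 genes. Of the 28 tested genes of lipolysis control and product export counted here, Adrb3 rose (3.97% of all tested genes were called higher) and none fell, with a median log2 fold change of -0.33. At an unadjusted p under 0.05, 4 were higher and 5 lower (16.7% and 11.8% of all tested genes). DESeq2 called 1 higher and 5 lower (10.6% and 7.64% of all), and with libraries scaled to adipocyte genes 5 were higher and 1 lower (18.9% and 1.51% of all). Without PBS replicate 1, 2 were called higher and 5 lower (10.5% and 5.99% of all), and without PBS replicate 2, 3 were called higher and none lower (7.45% and 7.18% of all). Adrb3, the beta-3 receptor through which noradrenaline starts lipolysis in mouse fat cells, had 96.6 and 128 CPM in MHE libraries and 42.1 and 40.1 CPM in PBS libraries, without overlap (1.45 ± 0.23, adjusted p = 0.0424). It lost the call without MHE replicate 1 (1.66, adjusted p = 0.311) and without MHE replicate 2 (1.25, adjusted p = 0.282), settings in which no gene passed. The call was kept without PBS replicate 1 (1.47, adjusted p = 0.0159) and without PBS replicate 2 (1.43, adjusted p = 0.0182). The 6 listed receptors that restrain lipolysis through inhibitory G proteins did not pass and went both ways, 2 lower and 4 higher in MHE, each without overlap between the groups (28.9% and 33.1% of all tested genes). On the lower side, the prostaglandin receptor Ptger3 had 12.7 and 18.4 CPM in MHE libraries and 33.2 and 90.9 CPM in PBS libraries (-2.00 ± 0.53, adjusted p = 0.0951), and the adenosine receptor Adora1 had 54.8 and 43.4 CPM against 84.8 and 84.0 CPM (-0.78 ± 0.21, adjusted p = 0.0979). Ptger3 passed with DESeq2 (-2.03, adjusted p = 0.00201) and with libraries scaled to adipocyte genes (-1.24, adjusted p = 0.0270), and Adora1 with DESeq2 (-0.81, adjusted p = 0.0235). Ptger3 had -2.56 without PBS replicate 1 and -1.09 without PBS replicate 2. On the higher side, the hydroxybutyrate receptor Hcar2 had 28.8 and 24.05 CPM in MHE libraries and 10.3 and 16.0 CPM in PBS libraries (1.01 ± 0.29, adjusted p = 0.108). The adrenergic receptor Adra2a, at 3.49 and 3.58 CPM against 1.73 and 0.676 CPM, had 1.55 ± 0.60 (adjusted p = 0.170). The neuropeptide Y receptor Npy1r and the lactate receptor Hcar1 had 1.12 ± 0.48 and 0.35 ± 0.18 (adjusted p = 0.202 and 0.268). Npr3, the clearance receptor that removes natriuretic peptides, had 461 and 668 CPM in MHE libraries and 1280.1 and 2745 CPM in PBS libraries. Its groups did not overlap, and its log2 fold change was -1.83 ± 0.51 (adjusted p = 0.100), with an adjusted p of 5.53e-04 under DESeq2 and 0.00927 without PBS replicate 1.

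The other droplet proteins were mostly negative without a call. Of 15 tested out of 17, none passed edgeR, 12 had negative log2 fold changes (51.2% of all tested genes did), and the median was -0.47. At an unadjusted p under 0.05, 5 were lower and 0 higher, where 11.8% and 16.7% of all tested genes were. DESeq2 called 4 lower (7.64% of all), and edgeR 3 lower without PBS replicate 1 (5.99% of all) and 2 lower without PBS replicate 2 (7.18% of all). The caveolar genes Cav1, whose product also reaches the droplet surface, and Cavin1 were the abundant ones. Cav1 had 1257 and 1028 CPM in MHE libraries and 2819 and 4129.6 CPM in PBS libraries (-1.60 ± 0.41, adjusted p = 0.0858). Cavin1 had 1196 and 1251 CPM in MHE libraries and 2473 and 4024 CPM in PBS libraries (-1.41 ± 0.41, adjusted p = 0.113). Neither overlapped between the groups, and both passed without PBS replicate 1 (-1.87 and -1.73). Plin2, the perilipin of non-fat cells and lipid-laden macrophages, had 426 and 529.7 CPM in MHE libraries and 1077 and 800.4 CPM in PBS libraries (-0.97 ± 0.33, adjusted p = 0.142), and was higher in PBS replicate 1, unlike the 10 genes. Plin3 followed the same order among PBS libraries (47.6 and 50.4 CPM in MHE libraries against 85.0 and 70.7 CPM; -0.67 ± 0.20, adjusted p = 0.119). Plin5, the perilipin of oxidative tissues, had 20.4 and 9.97 CPM against 18.8 and 22.2 CPM and overlapped between the groups. Cidea, the brown and beige relative of Cidec, had 27.5 and 7.51 CPM in MHE libraries and 5.52 and 10.7 CPM in PBS libraries, so a single MHE library held its high value. It passed with libraries scaled to adipocyte genes (1.74, adjusted p = 0.00427) and turned to -0.10 without MHE replicate 1.

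Among other lipases and esterases none of 23 tested genes passed edgeR, 12 were negative, and the median was -0.15. At an unadjusted p under 0.05, 3 were higher and 6 lower (16.7% and 11.8% of all tested genes), and DESeq2 called 2 higher and 6 lower (10.6% and 7.64% of all). Without PBS replicate 1 the calls were 3 higher and 2 lower (10.5% and 5.99% of all), and without PBS replicate 2 they were 2 higher and 7 lower (7.45% and 7.18% of all). The phospholipase Ddhd1 had the smallest p, at 44.8 and 45.3 CPM in MHE libraries and 26.5 and 21.8 CPM in PBS libraries (0.90 ± 0.20, adjusted p = 0.0686). Abhd4 and Abhd12, relatives of Abhd5 that act on lysophospholipids and related lipids, had -0.91 ± 0.23 and -1.12 ± 0.30 (adjusted p = 0.0839 and 0.0936), and Dagla, a diacylglycerol lipase of endocannabinoid synthesis, -1.45 ± 0.39 (adjusted p = 0.0937). Lpl, lipoprotein lipase, which brings fatty acids in rather than out, had 2193 and 4819 CPM in MHE libraries and 8099 and 12439 CPM in PBS libraries. Those groups did not overlap, but each pair was widely spread and Lpl did not pass edgeR (-1.55 ± 0.58, adjusted p = 0.164), though it did pass DESeq2 (adjusted p = 0.00627).

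**Figure D4:**
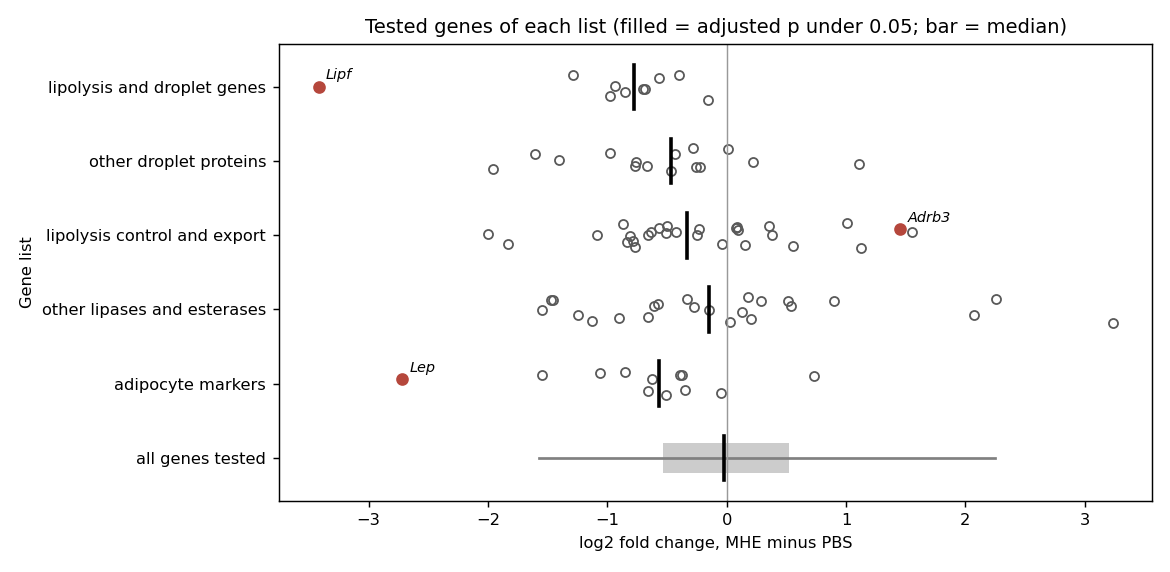
Log2 fold change, MHE minus PBS, of the tested genes of each list, with filled points for an adjusted p under 0.05 and a black bar at the median; for all tested genes the box spans the middle 50% and the line the 5th to 95th percentile. Lipf, Lep and Adrb3 are the filled points, and the medians are -0.78 for the 10 genes, -0.47, -0.33 and -0.15 for the 3 pathway lists and -0.57 for the adipocyte markers.

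The mean profile of the 10 genes, as log2 CPM centred on each gene's mean over the 4 libraries, was -0.44 and -0.53 in MHE libraries and 0.12 and 0.84 in PBS libraries. Mgll and Cidec lay closest to it among the 10 (root mean square distance 0.14 and 0.10) and Lipf farthest (1.19). Outside the 10, the tested genes nearest to that profile were Lmcd1, Dusp26, Ppp1r3d, Esam and Slc7a10, each within 0.05 of it. With only 4 libraries many genes can share such a profile, and the likeness is a description. Counts of Lipe, Mgll, Abhd5 and Plin4 include exon stretches that overlap a gene on the opposite strand (4732471J01Rik, Gm26588, A730085K08Rik and Hdgfl2), and since the use of strand is not given in the sources used here, reads there cannot be assigned.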

How the data were processed

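RNA from the SVF of iWAT was sequenced in 2 MHE and 2 PBS libraries, grouped by the labels. The deposited files hold the authors' raw read counts, 1 whole number for each gene symbol. The submitters' processing notes name TopHat2, edgeR, limma and build mm10; no version, counting program, annotation or strand setting is given in the sources used here. The labels' protocols mention triplicates; 2 libraries per group were analysed here.

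All 26214 symbols were filtered with filterByExpr (minimum count 10, minimum total 15), scaled by TMM and tested with edgeR 4.0.16 in R 4.3.3 (robust quasi-likelihood fit, no block), with Benjamini-Hochberg adjustment over 16196 genes and a threshold of 0.05. SE is the absolute log2 fold change over the square root of F, and intervals use the fit's degrees of freedom. CPM uses TMM factors. Alternatives were other scalings, DESeq2 1.42.0, limma-voom (limma 3.58.1), other filters, a block for the replicate number, and leaving out 1 library at a time. The procedure was tested on simulated data. With 2 libraries in each group, the smallest two-sided p of an exact permutation test is 0.333, so none was used.

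Library totals were 27161882 to 33391075; the 10 genes had 62 to 170072 counts, so replicate spread rather than counting limits precision. Coordinates come from RefSeq GRCm38.p6 (the assembly of mm10), with 26167 symbols matched, promoter sequences from RefSeq and exon lengths from GENCODE M21. Replicates were not copies of one library (chi-square per degree of freedom 118 in MHE and 146 in PBS). The 10 genes, the lists and the tests were chosen with earlier results of these data known. Named from the other lists were genes past the threshold, or up to 4 by smallest p, plus Adrb3, Plin2, Plin5, Cidea and Lpl. Ces1f, Lipk, Lipn, Lipm, Lipa, Lipo3, Hcar1, Hcar2, Adra2a, Npy1r, Lep, Adipoq, Acta1, Acta2, Cnn1, Lmod1, Myh11, Tagln, Myh4, Tnnt3, Mylpf, Ckm, Alb, Pgc and Atp4b were named after their values were seen. One gene of lipolysis control is not reported here, for a reason unrelated to its values; it was taken out of its list's counts and median after they had been seen. The 5 genes nearest the mean profile were taken by root mean square distance, without provisional symbols.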

Additional observations from a re-analysis of the deposited data

How the results depend on the processing

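All 10 genes kept a negative log2 fold change with median-of-ratios factors, DESeq2, limma-voom, all genes kept at low counts, a stricter filter (50 counts over all libraries, and 2 of them at a CPM of 1 or more), the replicate block, and without either MHE replicate or PBS replicate 1. With libraries scaled to adipocyte genes, Abhd5 (0.23), Plin1 (0.10), Ces1d (0.54), Lipe (0.0013) and, of the other droplet proteins, Plin5 (0.16) turned positive, and Ces1d also turned with library totals alone (0.036), which moved the median of all genes to 0.14. The adipocyte scaling moved the median of all genes to 0.59 and called 3057 genes higher and 245 lower, against 643 and 156. DESeq2 called 1714 higher and 1237 lower, with 3 of the 10 genes among the lower ones (7.64% of all tested genes): Lipf, Mgll (-1.32) and Cidec (-1.01). Limma-voom called 243 lower. With a library left out, calls ranged from 0 to 1753 higher and from 0 to 1233 lower, and from 0 to 2 lower among the 10 genes; without an MHE replicate the spread comes from the PBS pair alone and nothing passed, and the lone library is assumed to vary like the other group. Left-out values ran from -3.80 to -2.93 for Lipf, -1.61 to -0.88 for Mgll, -0.52 to 0.33 for Ces1d, -1.03 to 0.0036 for Plin5 and -0.10 to 1.77 for Cidea. No label says that the replicate numbers pair the animals, and the correlation of same-numbered deviations (0.12 in 2 pairs) cannot settle it. With the replicate block 764 genes were called in edgeR against 799, and Lipf had -3.36 (adjusted p = 0.0448). Genes at an unadjusted p under 0.05 went from 4626 to 5073. Among the 10 genes the SE rose for G0s2 (0.48 to 0.56) and Lipf (0.39 to 0.40). It fell for the rest, as for Plin4 (0.57 to 0.28) and Pnpla2 (0.42 to 0.29). The cause of these shifts was not tested. Replicate number, not depth, limits the 10 genes, since the lowest held 62 counts.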
